A study of Mus musculus with 6 samples.

Results

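The genes described here are the collagen chains and the proteins that modify, fold, trim, cross-link or bind collagen, measured as RNA in HT22 cells with and without aluminum (Al). Members were chosen by symbol alone: every gene whose symbol has the form of a collagen chain, and 12 named enzymes and binding proteins. Of 21878 gene symbols, 57 matched. They comprise 44 collagen chains, the 12 enzymes and binding proteins, and Col4a3bp, which shares only the letters of the rule and encodes a ceramide transfer protein. Col4a3bp is left out of the counts, so 56 genes remain: 11 fibrillar chains, 8 basement membrane chains, 25 other collagen chains and 12 enzymes and binding proteins.

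HT22 is an immortalized mouse hippocampal line used as a neuronal model, and the labels name no genetic change in the libraries used here. Control cells received no aluminum maltolate (0 µM) and Al cells received 120 µM aluminum maltolate, with 3 libraries in each group, labelled as biological replicates of 1 line. The sequenced control is named only as control, the study's name for cells in plain medium, and a maltol control is listed apart. The exposure is taken as 24 h, the usual treatment time of these cells, since that of the sequenced cultures is not stated apart, and the labels of the series name a wider range of doses. The labels carry only a letter for each group, and the letter M was read as Al from the study's own name for this comparison. The libraries are the input fraction of an m6A immunoprecipitation experiment, that is, RNA that was fragmented and kept back before the antibody step.

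Collagens are trimers of chains that fold into a triple helix in the endoplasmic reticulum, after hydroxylation of proline and lysine, and that are trimmed and cross-linked outside the cell. Fibrillar collagens give tissues tensile strength, while type IV collagen forms the sheet of the basement membrane. In the brain, type IV collagen is a part of vascular basement membranes, and fibrillar collagens are largely products of the meninges and of fibroblast-like cells around vessels. Because a trimer needs its chains in a set proportion, the balance between partner chains matters as well as the level of each.

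The deposited unit was FPKM, the number of fragments of a gene scaled to its transcript length and to the library total. From the steps between FPKM values, library totals of 38059492, 43422481 and 44556768 reads were recovered for control libraries, and of 26670978, 21857904 and 21125631 reads for Al libraries. The 100 genes with the highest FPKM held 26.4% to 28.2% of the summed FPKM of each control library and 40.8% to 44.3% of that of each Al library. On the deposited scale the median of all 12889 tested genes lay at a log2 fold change of -0.43. FPKM values were therefore divided by a size factor for each library, which brought that median to 0.03, and fold changes below are on this scaled log2(FPKM + 0.1) scale unless another is named. Scaling to an equal sum (TPM) put the median at -0.72. FPKM, TPM and size-factor scaling differ by 1 factor per library, so they move abundant genes by about the same amount, and genes near the added 0.1 by less. A gene was called higher or lower at a Benjamini-Hochberg adjusted P under 0.05 (limma) and an absolute log2 fold change over 0.58. In these bulk libraries, fewer cells of a type and less RNA per cell cannot be told apart.

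The neuronal label was checked against 8 markers. Snap25 was at 0 in all 6 libraries, 6 of the 8 markers stayed under 1 FPKM in every library, and only Tubb3 (2.44 to 5.54 FPKM) and Syn1 (2.18 to 7.74 FPKM) were above 1 throughout. On the deposited scale, control and Al values were 5.11 to 5.54 and 2.44 to 3.96 FPKM for Tubb3. For Syn1 they were 7.47 to 7.74 and 2.18 to 2.76 FPKM. The 8 markers summed to 12.8 to 13.3 FPKM in control and 5.25 to 6.85 FPKM in Al libraries. What part this shift had in the comparisons was not tested. The markers at or near 0 included Rbfox3, Map2 and Nefl, while Syn1, which encodes a synaptic vesicle protein, was present. Markers of fibroblasts and mesenchymal cells were present: 5 of 6 were at 1 FPKM or more in every library, with Vim between 952 and 1188 FPKM, Thy1 between 33.5 and 81.6 FPKM and Pdgfrb between 10.8 and 46.2 FPKM. Summed over the 6 markers, the level was 1189 to 1302 FPKM in control libraries and 1026 to 1233 FPKM in Al libraries, most of it from Vim. All 4 endothelial, all 4 astrocyte and all 4 oligodendrocyte markers stayed under 1 FPKM. The 4 microglial markers summed to 39.3 to 48.9 FPKM in control and 22.1 to 72.6 FPKM in Al libraries, nearly all of it from Tmem119, with P2ry12 at 0 in all libraries.

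Type I collagen was among the most abundant RNA of these cells. By mean FPKM among all genes, Col1a2 ranked 11 in control and 49 in Al libraries, and Col1a1 ranked 34 and 59. Col1a1, Col1a2 and Col3a1 together made up 78.1% to 83.4% of the summed FPKM of all 44 chains in each library. With Col5a2 and Col5a1 added, the share was 89.7% to 93.6%. Of the 56 members, 29 had a mean FPKM of 1 or more, 38 passed the filter for testing (a mean FPKM of 0.1) and 18 did not. The plot of FPKM by library gives the levels of the 29.

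**Figure D1:**
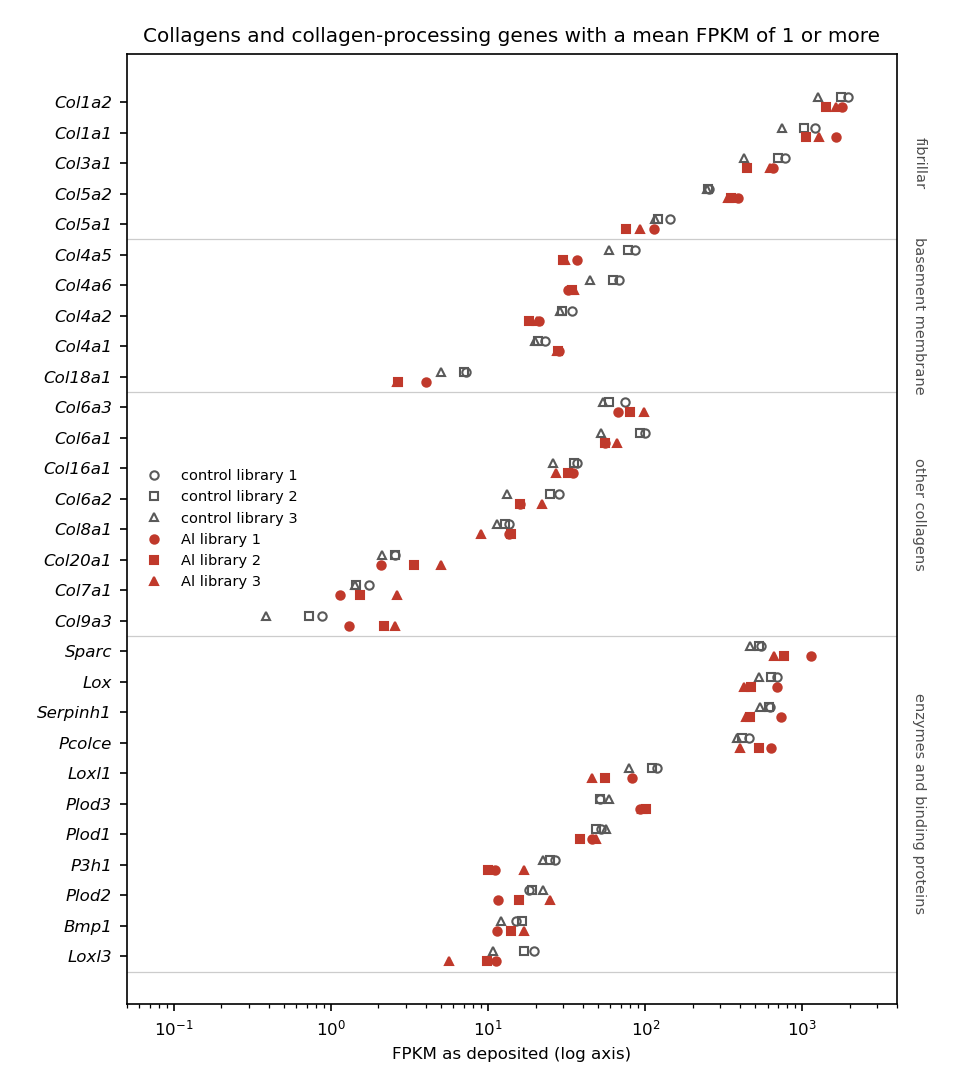
FPKM as deposited, on a log axis, of the 29 members with a mean of 1 or more, by class; open grey symbols are the 3 control libraries and filled red symbols the 3 Al libraries. Levels span from 0.386 FPKM (Col9a3 in control library 3) to 1955 FPKM (Col1a2 in control library 1), and the groups stand apart for Plod3, Col4a1, Col5a2 and Col4a5 among others.

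Summed by class, basement membrane collagen RNA was the class whose groups did not overlap on the deposited scale. Its summed FPKM was 219, 198 and 157 in control libraries and 122, 113 and 116 in Al libraries, or 191 ± 31.5 and 117 ± 4.58 (SD, n = 3 each; exact two-sided permutation P = 0.1, the smallest that 3 against 3 libraries allow). As a share of all FPKM in a library, this class went from 0.0514% ± 0.01 to 0.0255% ± 0.0017 (exact permutation P = 0.1). Every Al library lay below every control library on both scales. After division by the size factors, the log2 difference was -0.22 in place of -0.71 and the groups overlapped (exact permutation P = 0.3).

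The fibrillar sum, which rests on type I and type III collagen, was 3659 ± 793 FPKM in control and 3974 ± 629 FPKM in Al libraries (exact permutation P = 0.6). The other collagens summed to 217 ± 50.2 and 212 ± 22 FPKM (exact permutation P = 1), and the enzymes and binding proteins to 2422 ± 223 and 2703 ± 673 FPKM (exact permutation P = 0.7). On the deposited scale the groups of these 3 classes overlapped, and on the size-factor scale they did not. There every Al library was above every control library, with log2 differences of 0.61 (fibrillar), 0.44 (other collagens) and 0.66 (enzymes and binding proteins), each at the smallest exact permutation P of 0.1. As a share of all FPKM the 3 differences were -0.19, -0.34 and -0.15 (exact permutation P = 0.4, 0.3 and 0.5). Which classes stood apart therefore depended on the scaling, and the basement membrane sum was below 0 on all 3 scales.

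**Figure D2:**
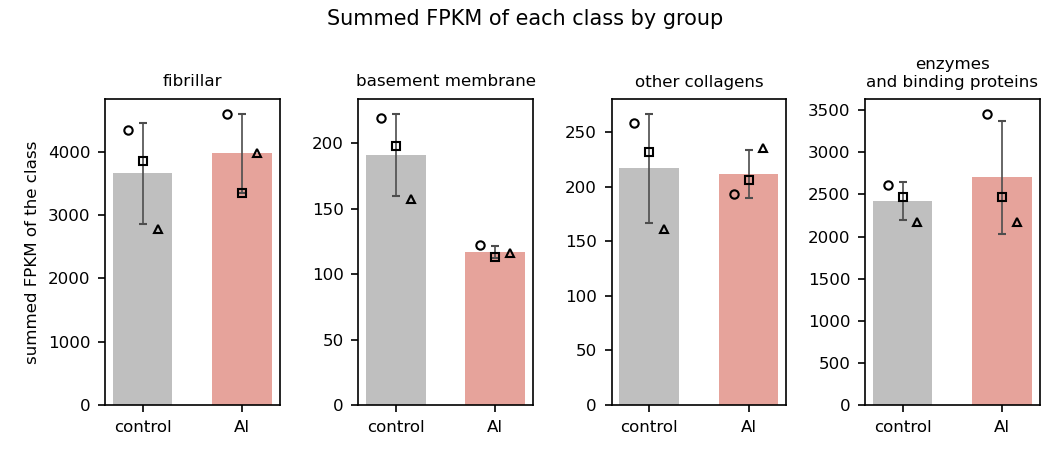
Summed FPKM of the 4 classes; bars are means, error bars SD (n = 3), and symbols the single libraries. Basement membrane collagens are at 113 to 122 FPKM in Al and 157 to 219 FPKM in control libraries, while the other 3 classes overlap between groups; after division by size factors basement membrane collagens overlap and the other 3 classes lie higher in Al (log2 difference 0.44 to 0.66).

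By gene, 12 of the 38 tested members were higher in Al and 2 were lower, where 25.5% of all tested genes were higher and 23.7% were lower. With 36.8% of members called against 49.2% of all genes, the members did not stand out by number. Their median log2 fold change was 0.31, beside 0.03 for all genes. It was -0.13 beside -0.43 with FPKM as deposited and -0.43 beside -0.72 with TPM. With GC content and length correction it was 0.43 beside 0.05. Quantile normalization, with -0.15 beside -0.03, was the one of these settings where it lay below that of all genes. Class medians under quantile normalization were -0.50 for fibrillar chains, -0.48 for basement membrane chains, 0.38 for other collagens and -0.16 for enzymes and binding proteins. After scaling, 19 of 38 members had no overlap between the groups (15 with Al above, 4 with Al below), or 50% beside 68.1% of all genes. The counts depend on the scaling: with FPKM as deposited, 6 members were higher and 9 lower (background 13.5% and 41.3%), with TPM 3 and 12 (8.85% and 52.2%), and with quantile normalization 8 and 8 (21.5% and 23.3%). Under all of these, and with a correction for GC content and length, Col2a1, Col23a1 and Col9a3 were higher and Col10a1 and Col4a5 were lower. These settings share libraries and filter and are not independent of each other. Of the 38 tested members, 3 (Col2a1, Col10a1 and Col11a1) had a group mean under 0.1 FPKM and passed the filter only through the group where they were high.

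**Figure D3:**
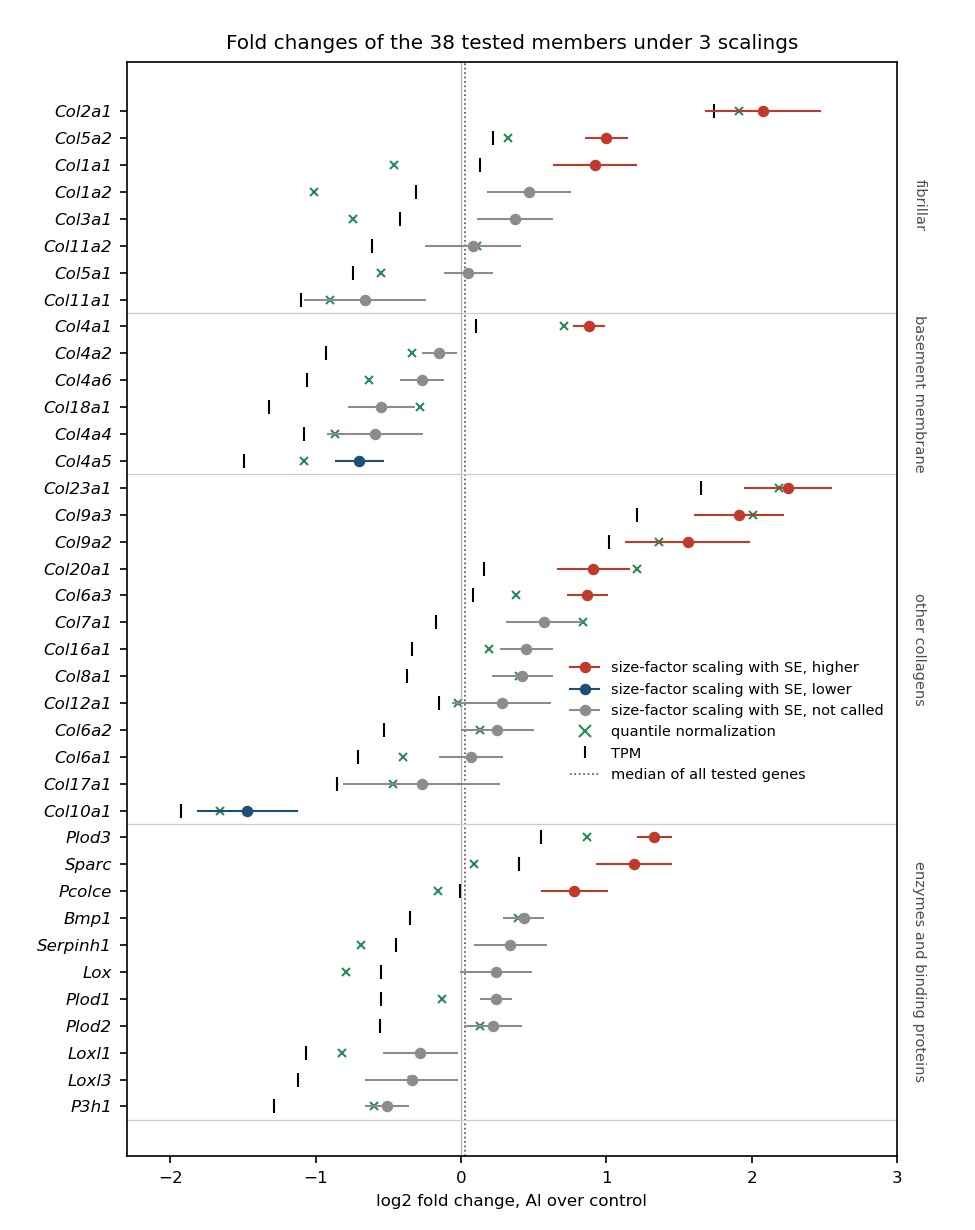
Log2 fold change, Al over control, of the 38 tested members by class: circles with SE under size-factor scaling (red called higher, blue called lower, grey not called), crosses under quantile normalization and ticks under TPM; the dotted line is the median of all tested genes at 0.03. The TPM ticks lie to the left of the circles throughout, and the crosses of abundant genes such as Col1a1 and Col1a2 lie below 0.

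Among the fibrillar chains, 8 of 11 were tested. On the size-factor scale 3 were higher (Col1a1, Col5a2 and Col2a1), with 37.5% called beside 49.2% of all genes. None was lower by limma on that scale at the adjusted or unadjusted P, or with voom on recovered reads (0 each). Under TPM 2 were called lower (Col5a1 and Col11a1) and under quantile normalization 1 (Col1a2), beside 52.2% and 23.3% of all genes. The class median was 0.42. Col1a1 encodes the chain present in 2 copies in a type I trimer and Col1a2 the single partner chain.

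FPKM of Col1a1 was 1207, 1019 and 743 in control libraries and 1646, 1054 and 1283 in Al libraries. Deposited values overlapped between the groups, and scaled values did not. The log2 fold change was 0.92 ± 0.29 (SE, adjusted P = 0.0219). The call was lost without control library 2 (adjusted P = 0.0723), control library 3 (adjusted P = 0.0985) or Al library 1 (adjusted P = 0.0739), without the filter (adjusted P = 0.0672), on the deposited scale (0.43, adjusted P = 0.117) and under TPM (0.13, adjusted P = 0.586), and quantile normalization turned the value to -0.46 (adjusted P = 0.147).

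FPKM of Col1a2 was 1955, 1760 and 1255 in control and 1799, 1412 and 1647 in Al libraries, with a log2 fold change of 0.47 ± 0.29 (adjusted P = 0.186) that turned to -1.01 (adjusted P = 0.00488) under quantile normalization. Col3a1, whose product forms homotrimers and mixes into type I fibrils, had 777, 702 and 426 FPKM in control and 654, 446 and 624 FPKM in Al libraries (log2 fold change 0.37 ± 0.26, adjusted P = 0.249). Both genes had their lowest deposited value in control library 3, and deposited values overlapped. The sign of both turned with FPKM as deposited, TPM and quantile normalization (-0.12, -0.42 and -0.74 for Col3a1).

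The type V chains, which start and limit the growth of type I fibrils, had unlike values. FPKM of Col5a2 was 253, 250 and 247 in control and 387, 353 and 334 in Al libraries, a 2-fold difference after scaling (log2 fold change 1.0 ± 0.15, adjusted P = 0.000554). All Al libraries were above all control libraries, and the control values lay close together, at 250 ± 3.23 FPKM (SD). FPKM of Col5a1 was 143, 120 and 115 in control and 113, 75.2 and 93 in Al libraries. On the deposited scale every Al value was below every control value, but after scaling the log2 fold change was 0.05 ± 0.17 (adjusted P = 0.815). Under TPM, Col5a2 had 0.22 (adjusted P = 0.056) and Col5a1 -0.74 (adjusted P = 0.00191). The Col5a2 value was also under the fold threshold on the deposited scale (0.51, adjusted P = 0.00222) and under quantile normalization (0.32, adjusted P = 0.0121).

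Col2a1, the chain of cartilage fibrils, was near the detection limit in control cells. Its values rest on 1, 1 and 16 reads in control and 80, 29 and 40 reads in Al libraries, although Al libraries were the shallower ones. The log2 fold change was 2.08 ± 0.40 (adjusted P = 0.00189), with a level of 0.353 ± 0.145 FPKM (SD) in Al. Col2a1 entered the test through its Al values alone (0.0232 FPKM in control), so a difference was built into its selection; in a fit of all genes without the filter the adjusted P was 0.0022. The size of this value depended on the pseudocount: it was 0.47 with a pseudocount of 1, under the fold threshold, and 4.17 with 0.01, while voom on recovered reads gave 5.15. The remaining fibrillar chains were low. Col11a1 (-0.66 ± 0.42) and Col11a2 (0.08 ± 0.33) were tested and not called on the size-factor scale, while Col11a1 was lower under TPM (-1.10, adjusted P = 0.0395). Col5a3, Col27a1 and Col24a1 did not reach 0.13 FPKM in any library.

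The type IV genes lie in head-to-head pairs: Col4a1 with Col4a2, Col4a4 with Col4a3, and Col4a6 with Col4a5. Their start regions are shown because both members of a pair are transcribed outward from 1 stretch of DNA. In GENCODE M21 (GRCm38), Col4a1 (chromosome 8, 11198423 to 11312826, minus strand) and Col4a2 (11312805 to 11449287, plus strand) share 22 bases of their first exons. Col4a4 and Col4a3 are 71 bases apart on chromosome 1, and Col4a6 and Col4a5 are 1308 bases apart on chromosome X. The sequences come from the RefSeq start windows of GRCm38, 5′ to 3′, on the plus strand for the first 3 lines and on the minus strand for Col4a6. The first line is exonic in both genes, and the other lines hold no annotated exon. Capitals mark the GC box GGGCGG, searched on both strands.
Col4a1 and Col4a2, shared first-exon bases, chr8:11312805-11312826: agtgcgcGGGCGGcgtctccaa
Col4a4 and Col4a3, between the starts, chr1:82586850-82586920: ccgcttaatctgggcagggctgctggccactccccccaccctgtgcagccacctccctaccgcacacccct
Col4a5, before the start, chrX:141475285-141475384: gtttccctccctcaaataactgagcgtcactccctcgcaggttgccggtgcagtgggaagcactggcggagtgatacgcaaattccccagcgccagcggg
Col4a6, before the start, chrX:141474077-141474176: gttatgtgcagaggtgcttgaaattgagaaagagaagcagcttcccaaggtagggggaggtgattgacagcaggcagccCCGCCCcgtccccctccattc

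A GC box stood in the bases shared by Col4a1 and Col4a2 and in those before Col4a6, and these letters were not in the other 2 stretches. RefSeq windows of 300 bases (250 before and 50 after a start) were found for 41 of the 56 members, as 45 windows. The GC box was in 62.2% of them and in 35.7% of all 32851 windows of that length. CCAAT was in 35.6% against 37.4%, and TATAAA in 13.3% against 13.6%, each on both strands. Members with a GC box in a window included Col4a5, although its shorter stretch shown above held none. No window was given for Col1a1, Col5a2, Col4a3, Plod2, Bmp1, Lox, Loxl1, Loxl2, Loxl3, Col2a1, Col9a3, Col12a1, Col14a1, Col22a1 or Col26a1.

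The common basement membrane trimer holds 2 chains from Col4a1 and 1 from Col4a2, and Col4a1 was the one chain of the class called higher. FPKM of Col4a1 was 23, 20.6 and 19.9 in control and 28.1, 27.9 and 27.4 in Al libraries. Every Al library was above every control library, and the log2 fold change was 0.88 ± 0.11 (adjusted P = 0.000176), with 0.10 (adjusted P = 0.511) under TPM. FPKM of Col4a2 was 34.3, 29.7 and 28.6 in control and 21.1, 18.1 and 20.3 in Al libraries. Here every deposited Al value was below every control value, and after scaling the groups overlapped and the log2 fold change was -0.15 ± 0.12 (adjusted P = 0.292), or 0.07 with GC content and length correction. Col4a2 was called lower on the deposited scale (-0.63, adjusted P = 0.000939) and under TPM (-0.93, adjusted P = 0.000192). The 22 shared bases are 0.295% of the exon bases of Col4a1 and 0.332% of those of Col4a2.

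Col4a5 and Col4a6, which join in the trimers of certain basement membranes such as that of smooth muscle, had the highest FPKM of their class in control cells. FPKM of Col4a5 was 86.4, 78.1 and 58.8 in control and 36.5, 29.8 and 30.7 in Al libraries, with no overlap on either scale. It was called lower, with a log2 fold change of -0.70 ± 0.17 (adjusted P = 0.00593), of -1.08 under quantile normalization and of -0.58 after GC content and length correction, which is at the threshold. FPKM of Col4a6 was 68.1, 61.9 and 44.7 in control and 32, 34.2 and 35.3 in Al libraries. Its deposited values did not overlap, while the scaled log2 fold change was -0.27 ± 0.15 (adjusted P = 0.141). Col4a6 was called lower on the deposited scale (-0.76, adjusted P = 0.00158), under TPM (-1.06, adjusted P = 0.000288) and under quantile normalization (-0.63, adjusted P = 0.0117).

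Col18a1, whose product is the source of endostatin, had 7.19, 7.01 and 5.01 FPKM in control and 4.04, 2.68 and 2.63 FPKM in Al libraries (log2 fold change -0.55 ± 0.23, adjusted P = 0.0654). Deposited values of Col18a1 did not overlap, and scaled values did. Without control library 3 or Al library 1, Col18a1 passed the test as lower (adjusted P = 0.0415 and 0.00855). It also did on the deposited scale (-1.02, adjusted P = 0.00255) and under TPM (-1.32, adjusted P = 0.000568). Col4a4, a chain of the glomerular trimer, was at 0.273 ± 0.0544 and 0.1 ± 0.0216 FPKM (log2 fold change -0.59 ± 0.33, adjusted P = 0.151). Col4a4 was called lower on the deposited scale (-0.89, adjusted P = 0.0402) and under TPM (-1.08, adjusted P = 0.0192). Its partner Col4a3 reached 0.0479 FPKM at most and Col15a1 0.0393 FPKM, and neither was tested. Of the 6 tested basement membrane chains, 1 was thus higher, 1 lower and 4 not called on the size-factor scale, with a class median of -0.41. This is 33.3% called, beside 49.2% of all genes. On the deposited scale and under TPM, 0 were higher and 5 lower, where 41.3% and 52.2% of all genes were lower. The class medians there were -0.83 and -1.07, beside -0.43 and -0.72 for all genes.

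Among the 25 other collagen chains, 13 were tested, of which 5 were higher and 1 lower (class median 0.45). This is 46.2% called, beside 49.2% of all genes. Type VI collagen forms beaded filaments around cells from chains of Col6a1, Col6a2 and Col6a3. FPKM of Col6a3 was 74.1, 59 and 53.9 in control and 67.2, 79.3 and 97.9 in Al libraries. Deposited values overlapped through Al library 1, scaled values did not, and the log2 fold change was 0.87 ± 0.14 (adjusted P = 0.000872), with 0.08 (adjusted P = 0.708) under TPM and 0.38 (adjusted P = 0.114) under quantile normalization.

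FPKM of Col6a1 was 99.3, 92.9 and 52 in control and 55.5, 55.2 and 66.3 in Al libraries. FPKM of Col6a2, which lies 85.2 kb from Col6a1 on chromosome 10 on the same strand, was 28.1, 24.9 and 13.1 in control and 15.9, 16 and 22 in Al libraries. Control library 3 was below all Al libraries for both genes, while the other two control libraries were above them. The log2 fold changes of 0.07 ± 0.22 (adjusted P = 0.777) and 0.25 ± 0.25 (adjusted P = 0.401) turned to -0.22 and -0.09 without control library 3. Col6a4, Col6a5 and Col6a6 were at most at 0.0545, 0.00492 and 0.00611 FPKM.

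Genes of type IX collagen, which coats cartilage fibrils, and of the transmembrane chain Col23a1 were among those called higher. Col9a3 had 0.877, 0.722 and 0.386 FPKM in control and 1.3, 2.17 and 2.54 FPKM in Al libraries, with no overlap and a log2 fold change of 1.91 ± 0.31 (adjusted P = 0.000804). Col9a2 rested on 8, 32 and 19 reads in control and 17, 39 and 43 reads in Al libraries (log2 fold change 1.56 ± 0.43, adjusted P = 0.012). The Col9a2 call was lost without control library 1 (adjusted P = 0.0505), under TPM (adjusted P = 0.0715), with a pseudocount of 1 (0.50) and when library 3 of both groups was left out (adjusted P = 0.0668). Col9a1, which encodes the remaining chain of type IX, had 27, 7 and 23 reads in control and 2, 0 and 0 reads in Al libraries, and was under the filter.

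Col23a1 rose, with a log2 fold change of 2.25 ± 0.30 (adjusted P = 0.000272) that the added 0.1 makes smaller (2.89 with voom), on 43, 79 and 30 reads in control and 129, 143 and 138 reads in Al libraries. Col10a1, the chain of hypertrophic cartilage, fell from 54, 54 and 47 reads to 6, 4 and 1 reads (log2 fold change -1.47 ± 0.35, adjusted P = 0.00617). Col10a1 passed the filter through its control values alone (0.0485 FPKM in Al), and without the filter the adjusted P was 0.00383. With a pseudocount of 1, the Col10a1 value was -0.33, under the fold threshold, and with 0.01 it was -2.51. Of its exon bases, 0.575% overlap Nt5dc1 on the opposite strand.

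Col20a1, a fibril-associated chain, had 2.56, 2.54 and 2.11 FPKM in control and 2.09, 3.38 and 5.03 FPKM in Al libraries (log2 fold change 0.91 ± 0.25, adjusted P = 0.0118). Its value was lowest of all in Al library 1 and highest in Al library 3, and the call was lost on the deposited scale (0.44, adjusted P = 0.202), under TPM (0.16, adjusted P = 0.684) and when library 3 of both groups was left out (adjusted P = 0.0627). The abundant chains Col16a1 and Col8a1, and Col7a1, were not called. Col16a1, another fibril-associated chain, had 36.5, 35.2 and 25.8 FPKM in control and 34.7, 32.4 and 27.2 FPKM in Al libraries (0.45 ± 0.18, adjusted P = 0.0513). Col8a1, a network-forming chain of vessel walls, had 13.5, 12.8 and 11.3 FPKM in control and 13.5, 13.9 and 9.04 FPKM in Al libraries (0.42 ± 0.21, adjusted P = 0.111). Col7a1, the anchoring fibril chain, had 1.74, 1.45 and 1.41 FPKM in control and 1.14, 1.52 and 2.63 FPKM in Al libraries (0.57 ± 0.26, adjusted P = 0.081).

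Groups overlapped on the deposited scale for all 3. Leaving out Al library 3 took Col16a1 (adjusted P = 0.00458) and Col8a1 (adjusted P = 0.000426) past the test, and leaving out Al library 1 took Col7a1 past it (adjusted P = 0.0197). Col7a1 was also called higher under quantile normalization (0.84), with voom (0.62) and with GC content and length correction (0.90), and Col16a1 with that correction (0.65, adjusted P = 0.0144). Col12a1 (0.28 ± 0.34) and Col17a1 (-0.27 ± 0.54) were tested below 1 FPKM and not called. The further untested chains stayed low in every library. The highest values were 0.149 FPKM for Col14a1, 0.167 for Col9a1, 0.0751 for Col28a1, 0.0573 for Col22a1, 0.0503 for Col8a2, 0.0457 for Col26a1, 0.0226 for Col25a1, 0.019 for Col13a1 and 0.0125 for Col19a1. Among all members, 12 had a value of 0 in at least 1 library, and a count of 0 allows up to 3 reads there by counting error alone.

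The lysyl hydroxylases Plod1, Plod2 and Plod3 prepare lysines for glycosylation and cross-linking, and Plod3 also carries glycosyltransferase activity. FPKM of Plod3 was 51.2, 51.1 and 58.9 in control and 93, 101 and 95 in Al libraries. It rose 2.52-fold, with no overlap on either scale (log2 fold change 1.33 ± 0.12, adjusted P = 3.53e-05, and 1.27 to 1.42 with 1 library left out). Under TPM the log2 fold change of Plod3 was 0.55 (adjusted P = 0.000942), just under the fold threshold.

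Plod1 had 52.4, 48.6 and 56.5 FPKM in control and 45.9, 38.5 and 48.3 FPKM in Al libraries (0.24 ± 0.11, adjusted P = 0.0953). Plod2, which acts on the telopeptides that form stable cross-links, had 18.3, 18.9 and 22.3 FPKM in control and 11.6, 15.6 and 24.6 FPKM in Al libraries (0.22 ± 0.20, adjusted P = 0.353). Al libraries were scattered for Plod2, with library 1 the lowest and library 3 the highest of all 6. Of the exon bases of Plod3, 11.7% lie opposite Znhit1, a gene at 13.1 to 21.5 FPKM, and whether reads were assigned by strand is not stated.

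Among the secreted and resident collagen-binding proteins, Sparc and Pcolce were higher. Sparc encodes a calcium-binding matrix protein that binds collagen. Its FPKM was 544, 527 and 465 in control and 1142, 765 and 658 in Al libraries, without overlap (log2 fold change 1.19 ± 0.26, adjusted P = 0.0042), with 0.40 (adjusted P = 0.0432) under TPM and 0.09 (adjusted P = 0.661) under quantile normalization. Pcolce encodes the enhancer of procollagen C-proteinase. Its FPKM was 458, 411 and 386 in control and 632, 530 and 400 in Al libraries, and deposited values overlapped through Al library 3. The log2 fold change of Pcolce was 0.78 ± 0.23 (adjusted P = 0.0174), and quantile normalization and TPM turned it to -0.16 and -0.0043. The Pcolce call was lost without control library 2 (adjusted P = 0.0663), control library 3 (adjusted P = 0.0633), Al library 1 (adjusted P = 0.0559) or Al library 2 (adjusted P = 0.0626).

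Bmp1, the C-proteinase that Pcolce assists, had 15.1, 16.3 and 12.1 FPKM in control and 11.3, 13.9 and 16.8 FPKM in Al libraries (0.43 ± 0.14, adjusted P = 0.0244, under the fold threshold). Serpinh1, the collagen chaperone HSP47, had 625, 610 and 535 FPKM in control and 735, 462 and 438 FPKM in Al libraries (0.34 ± 0.25, adjusted P = 0.276), and was lower under quantile normalization (-0.69, adjusted P = 0.00543). Groups overlapped for both on the deposited scale. P3h1, the prolyl 3-hydroxylase, had 26.8, 24.6 and 22.3 FPKM in control and 11, 9.91 and 16.9 FPKM in Al libraries. All Al values of P3h1 were below all control values on both scales, with a log2 fold change of -0.51 ± 0.15 (adjusted P = 0.0175) that missed the fold threshold, and of -0.66 (adjusted P = 0.000712) without Al library 3. P3h1 passed the test as lower on the deposited scale (-0.99, adjusted P = 0.00121), under TPM (-1.29, adjusted P = 0.000418) and under quantile normalization (-0.60, adjusted P = 0.00723).

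The lysyl oxidases cross-link collagen and elastin outside the cell. Lox had 688, 633 and 531 FPKM in control and 685, 472 and 425 FPKM in Al libraries (0.24 ± 0.25, adjusted P = 0.427). Loxl1, with a part in elastic fibres, had 119, 111 and 78.4 FPKM in control and 82.4, 55.2 and 45.8 FPKM in Al libraries (-0.28 ± 0.26, adjusted P = 0.363). Loxl3 had 19.6, 16.8 and 10.7 FPKM in control and 11.2, 9.85 and 5.62 FPKM in Al libraries (-0.34 ± 0.32, adjusted P = 0.376). Loxl1 and Loxl3 passed the test as lower on the deposited scale (-0.77 and -0.82) and under TPM (-1.07 and -1.12). Under quantile normalization Loxl1 (-0.82, adjusted P = 0.0112) and Lox (-0.79, adjusted P = 0.00368) were lower.

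For Lox, Loxl1 and Loxl3, library 1 was the highest and library 3 the lowest in each group, and the groups overlapped. Of the exon bases of Loxl3, 11.6% lie opposite Htra2. Loxl2 reached 0.0606 FPKM at most and was not tested. In all, 3 of 11 tested enzymes and binding proteins were higher on the size-factor scale (class median 0.24), with 27.3% called beside 49.2% of all genes. With no library left out, limma on that scale and voom called none lower, while 1 (P3h1) was lower at an unadjusted P under 0.05. With FPKM as deposited, TPM and quantile normalization, limma called 3, 3 and 4 lower (background 41.3%, 52.2% and 23.3%).

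The proportion of partner genes was compared within each library, which removes any single factor per library. Of 8 pairs, 7 had no overlap between the groups, where 68.1% of all single genes had none; the share among other gene pairs was not computed, so the count is not a result about these pairs. Each of these 7 had an exact two-sided permutation P of 0.1, the smallest that the design allows, and 0.114 after adjustment over the 8 pairs, so no pair could pass 0.05. The largest shifts were in type IV and type V collagen and in the lysyl hydroxylases.

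The ratio of Col4a1 to Col4a2 was 0.67, 0.692 and 0.695 in control and 1.33, 1.54 and 1.34 in Al libraries. The second chain was thus the more abundant in all control libraries and the first in all Al libraries, a 2.05-fold difference against an SD of 0.0137 and 0.118. The ratio of Col5a1 to Col5a2 was 0.567, 0.479 and 0.465 in control and 0.292, 0.213 and 0.279 in Al libraries, a fold difference of 0.516. The ratio of Plod2 to Plod3 was 0.356, 0.371 and 0.378 in control and 0.125, 0.154 and 0.259 in Al libraries, a fold difference of 0.464 with a wide spread in Al.

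Smaller shifts were seen in the other pairs. The ratio of Col1a1 to Col1a2 was 0.596 ± 0.0195 in control and 0.813 ± 0.0896 in Al libraries (SD, n = 3 each). The ratio of Col6a1 to Col6a3 was 1.29 ± 0.307 and 0.733 ± 0.0811, and that of Col6a1 to Col6a2 was 3.75 ± 0.226 and 3.32 ± 0.263. The ratio of Serpinh1 to Col1a1, chaperone to client, was 0.612 ± 0.102 and 0.409 ± 0.0583. Plod2 to Plod1 was the pair with overlap, at 0.377 ± 0.0255 and 0.389 ± 0.128 (exact permutation P = 1). Leaving out any 1 library kept the sign of the difference in each pair but Plod2 to Plod1.

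**Figure D4:**
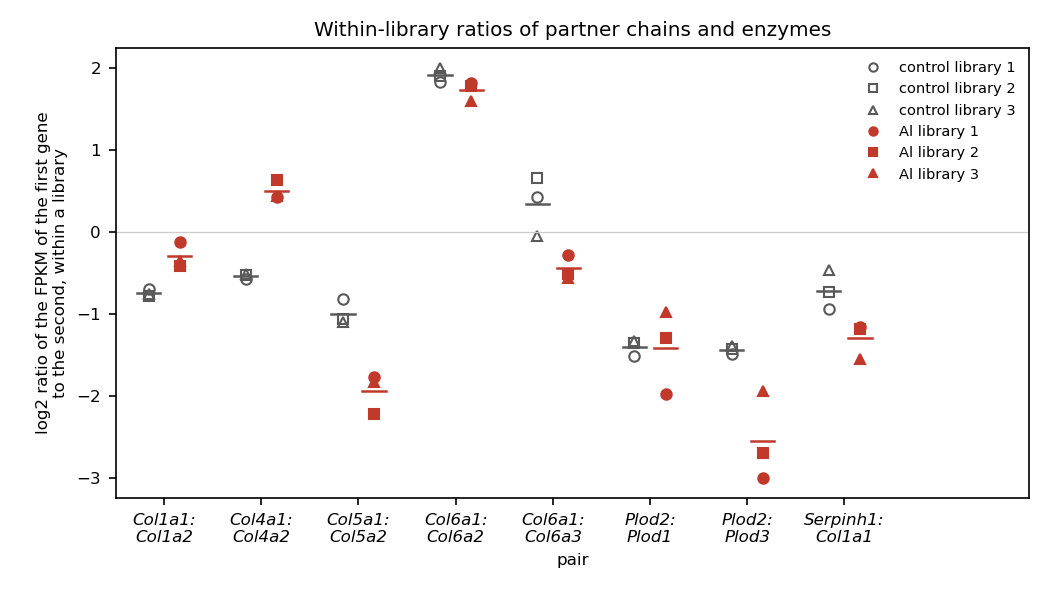
Log2 ratio of the FPKM of 2 genes within each library for 8 pairs; short lines are group means (n = 3), grey open symbols control and red filled symbols Al libraries. The Col4a1 to Col4a2 ratio is below 0 in all control libraries and above 0 in all Al libraries, and the groups overlap for Plod2 to Plod1 alone.

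Libraries of a group differed for the collagens as a set. For each of the 18 collagen chains with a mean FPKM of 1 or more, control library 1 was the highest and control library 3 the lowest of the control group. In the Al group no library held such a place: library 1 was the highest for 10 chains and the lowest for 6, and library 3 the highest for 7 and the lowest for 5. The fibroblast and mesenchymal markers Pdgfrb (46.2, 37 and 19.6 FPKM), Pdgfra (17, 14.9 and 8.5 FPKM) and Dcn (13.4, 11.7 and 3.77 FPKM) followed the same sequence over control libraries 1, 2 and 3, and their part in the result was not tested. Between the groups the 6 markers were mixed: every Al value was below every control value for Pdgfra (2.66 to 6.21 FPKM), Dcn (1.24 to 2.29 FPKM) and Lum (0 to 0.0723 FPKM), every Al value of Thy1 was above (45.6 to 81.6 against 33.5 to 35.7 FPKM), and Pdgfrb and Vim overlapped. The part of this in the comparisons was not tested either. When library 3 of both groups was left out, 4 members were lower in place of 2.

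**Figure D5:**
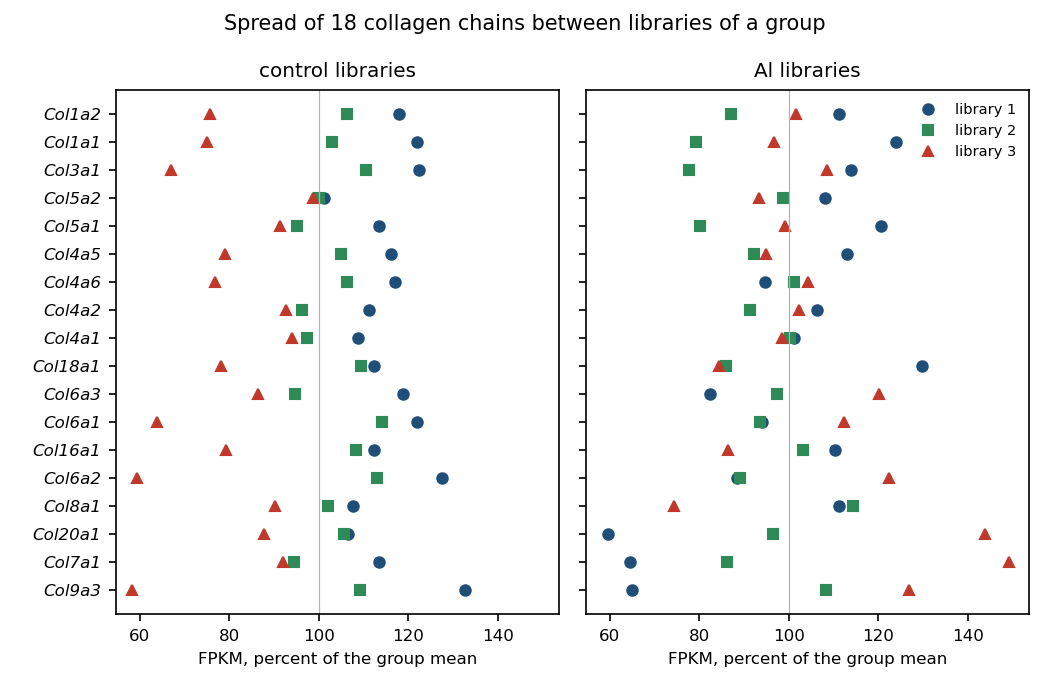
FPKM of the 18 collagen chains with a mean of 1 or more, as a percentage of the mean of their group, in the 3 control libraries (left) and the 3 Al libraries (right). Control library 1 is the rightmost and control library 3 the leftmost point of every row, and the Al libraries change places between rows.

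Genes that act with the members were taken from 7 lists, of which 60 genes were tested, 23 higher and 11 lower in Al (background 25.5% and 23.7%). Among the genes of proline hydroxylation and folding, 7 of 10 were higher and 1 lower, but on the deposited scale 3 were higher, under TPM 1 and under quantile normalization 2 (background 13.5%, 8.85% and 21.5%). P4hb, the protein disulfide isomerase subunit of prolyl 4-hydroxylase, went from 430 ± 10.8 to 667 ± 40.6 FPKM (log2 fold change 1.12, adjusted P = 0.000501, with 0.07 under quantile normalization). Crtap and Ppib, which bind P3h1 in the 3-hydroxylation complex, rose by 1.49 (adjusted P = 9.28e-05) and 1.36 (adjusted P = 0.0014) on the log2 scale, in contrast to P3h1 itself at -0.51. P3h4 had 0.91, which was under the fold threshold on the deposited scale (0.42), under TPM (0.12) and under quantile normalization (0.51). The catalytic subunit P4ha2 was lower, from 29 ± 4.83 to 12.6 ± 6.46 FPKM (-0.82, adjusted P = 0.0223), and is named as the one lower gene of the list. Of the 7 higher genes, 3 (P4ha1, Fkbp10 and Colgalt1) were below 0 under TPM.

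Of 9 tested genes of export from the endoplasmic reticulum, limma and voom called 0, and 2 in each direction had an unadjusted P under 0.05. Of these, Klhl12 (0.53, adjusted P = 0.00426), Sec24d (-0.50, adjusted P = 0.00609) and Sar1b (0.34, adjusted P = 0.027) passed the adjusted P and missed the fold threshold. On the deposited and TPM scales 4 and 7 of these 9 were lower (background 41.3% and 52.2%). Quantile normalization called 1 higher and 2 lower (background 21.5% and 23.3%). Among procollagen peptidases, Adamts14 was lower (-0.92, adjusted P = 0.0101) and Adamts2, the main N-proteinase, was higher (0.62, adjusted P = 0.0439, with -0.16 under TPM). Among collagen receptors, the tyrosine kinases Ddr1 and Ddr2 were lower and the integrin subunit Itgb1 was higher. Ddr1 went from 18.9 ± 1.16 to 4.45 ± 1.07 FPKM (-1.60, adjusted P = 2.44e-05), Ddr2 from 55.1 ± 6.08 to 25.5 ± 1.49 FPKM (-0.62, adjusted P = 0.00148, with -0.31 after GC content and length correction), and Itgb1 from 140 ± 7 to 198 ± 0.577 FPKM (0.99, adjusted P = 0.000151). The Itgb1 value was under the fold threshold on the deposited scale (0.50), under TPM (0.20) and under quantile normalization (0.31). Itga11, the other receptor called higher (2.21), had a mean under 1 FPKM and is named outside the rule, after its values were seen.

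Among collagenases and their inhibitors, 3 of 7 tested genes were higher and 1 lower (background 25.5% and 23.7%). The inhibitor Timp2 went from 268 ± 30 to 609 ± 141 FPKM (1.65, adjusted P = 0.000493) and Timp1 from 32.5 ± 8.2 to 82.5 ± 36.6 FPKM (1.74, adjusted P = 0.00407), where Al library 3 lay within the control values. Timp3, the matrix-bound inhibitor, went from 47.4 ± 7.04 to 14.3 ± 5.06 FPKM (-1.28, adjusted P = 0.00205). The protease Ctsk was also higher (1.76), with a mean under 1 FPKM, and is likewise named after its values were seen.

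Of 14 tested matrix partners, 5 were higher and 3 lower (background 25.5% and 23.7%), where voom on recovered reads called 5 higher and 1 lower (Postn). FPKM as deposited gave 4 higher and 5 lower (background 13.5% and 41.3%). TPM gave 3 and 5 (8.85% and 52.2%), and quantile normalization 3 and 5 (21.5% and 23.3%). Fbln2, a fibulin of basement membranes and elastic fibres, went from 194 ± 12.5 to 507 ± 51.5 FPKM (1.87, adjusted P = 3.47e-05), and the small proteoglycan Bgn from 837 ± 132 to 1642 ± 340 FPKM (1.45, adjusted P = 0.00217), with 0.05 under quantile normalization. Dcn, a proteoglycan that binds type I fibrils, had -1.64 (adjusted P = 0.0105, and 0.055 with voom) and Postn -1.51 (adjusted P = 0.0119). The remaining calls, named after their values were seen, were Nid1 (1.26), Fbln5 (1.38) and Hspg2 (0.60, with -0.18 under TPM) as higher and Lum (-2.28, not called with voom) as lower.

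Of 11 tested genes of TGF-β input, a pathway known to raise collagen transcription, 5 were higher and 3 lower (background 25.5% and 23.7%), where voom called 2 lower. FPKM as deposited gave 3 higher and 4 lower (background 13.5% and 41.3%). TPM gave 3 and 6 (8.85% and 52.2%), and quantile normalization 3 and 3 (21.5% and 23.3%). Ltbp1, a latent TGF-β binding protein, went from 3.14 ± 0.314 to 7.72 ± 0.632 FPKM (1.75, adjusted P = 2.98e-05) and the TGF-β target Ctgf from 66.8 ± 24 to 154 ± 33.3 FPKM (1.72, adjusted P = 0.000722). Ltbp4 (-1.03, adjusted P = 0.0334, and 0.0579 with voom) and the ligand Tgfb3 (-0.88, adjusted P = 0.00445) were lower. The remaining lower gene, the ligand Tgfb1, went from 16.9 ± 0.604 to 8.06 ± 3.24 FPKM (-0.64, adjusted P = 0.0175) and is named after its values were seen, as are the higher Ltbp3 (0.80, with 0.01 under TPM) and Ltbp2 (1.15, from a mean of 0.0507 FPKM). Ltbp2 and Tgfb2 passed the filter only through the Al group, and Lum only through the control group. A difference was thus built into their selection. In the limma fit of all genes without the filter, the adjusted P was 0.00392 for Ltbp2, 0.000176 for Tgfb2 and 0.03 for Lum. The ligand Tgfb2, named after its values were seen because its mean was under 1 FPKM, was at 0.087, 0.119 and 0.0702 FPKM in control and 1.13, 1.14 and 1.5 FPKM in Al libraries (3.15, adjusted P = 2.42e-05).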

How the data were processed

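RNA of 3 control and 3 Al input libraries was used, with groups from the sample titles; the immunoprecipitated libraries were not analysed here. The authors deposited FPKM, 1 value per gene symbol and library. The study's methods name Trimmomatic, SortMeRNA and HISAT2 on GRCm38, whereas the submitters' processing notes name fastp, HISAT2, HTSeq and GRCm39, and the annotation behind the FPKM is not given in the sources used here. Coordinates are from GENCODE M21 on GRCm38 and were matched by symbol only.

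Whole reads were recovered from the FPKM steps for 17688 of 17688 genes above 0 (relative tolerance 1e-09). Size factors were medians of ratios over genes with a mean FPKM of 1 or more. limma 3.58.1 in R 4.3.3 (lmFit, eBayes with trend, two-sided) was fitted on log2(FPKM divided by size factor + 0.1) for the 12889 genes with a mean FPKM of 0.1 or more, with Benjamini-Hochberg adjustment over all of them. The recovery and the fit were tested on simulated data. Class sums and ratios used exact two-sided permutation tests. Members with a mean FPKM of 1 or more and ratio partners were named with values by library, lower members by fold change or highest value, and at most 4 called genes of each other list with a mean FPKM of 1 or more. The members and lists were chosen with earlier results of these data known. P-values measure the spread between these libraries, whose cultures are labelled biological replicates. Replicates differed by more than sampling noise (chi-square per degree of freedom 15.5 to 72.3). The replicate numbers did not pair the libraries. Tables were made with Python.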

Additional observations from a re-analysis of the deposited data

How the results depend on the processing

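Counts of called members moved with the scaling. With FPKM as deposited, 6 members were higher and 9 lower, with TPM 3 and 12, and with quantile normalization 8 were lower; 1 was lower with a pseudocount of 1 or a mean FPKM of at least 1, 4 without library 3 of both groups (an alternative chosen after seeing the data), and 7 were higher and 1 lower at a log2 fold change over 1. Fibrillar chains called higher were 1 in each of the 3 scalings, and chains called lower 2 with TPM and 1 with quantile normalization. Basement membrane chains called higher were 0 with FPKM as deposited and TPM, and those called lower 5, 5 and 2 in the 3 scalings and 2 without the trend. Other collagens called higher were 3 with FPKM as deposited, 2 with TPM and 3 at a mean FPKM of at least 1; those called lower were 2 with TPM, without a filter and without library 3 of both groups, and 0 with a pseudocount of 1 or a mean FPKM of at least 1. Enzymes and binding proteins called higher were 0 with TPM and 1 with quantile normalization, and those called lower 3, 3 and 4 in the 3 scalings and 1 without library 3 of both groups. Genes of the other lists called higher were 14, 11 and 14 in the 3 scalings, and those called lower 21 with FPKM as deposited and 26 with TPM. FPKM as deposited and TPM shift the median of all genes by -0.46 and -0.75, which by construction lowers each gene; the cause of the other changes was not tested.

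Log2 fold changes changed sign as follows. With FPKM as deposited, the values were -0.35 for Col11a2, -0.04 for Col16a1, -0.02 for Col1a2, -0.12 for Col3a1, -0.44 for Col5a1, -0.41 for Col6a1, -0.23 for Col6a2, -0.07 for Col8a1, -0.25 for Lox and Plod1, -0.26 for Plod2, -0.15 for Serpinh1 and -0.05 for Bmp1. With TPM they were -0.61 for Col11a2, -0.15 for Col12a1, -0.34 for Col16a1, -0.31 for Col1a2, -0.42 for Col3a1, -0.74 for Col5a1, -0.71 for Col6a1, -0.53 for Col6a2, -0.17 for Col7a1, -0.37 for Col8a1, -0.55 for Lox and Plod1, -0.56 for Plod2, -0.45 for Serpinh1, -0.0043 for Pcolce and -0.35 for Bmp1. With quantile normalization they were -0.02 for Col12a1, -0.46 for Col1a1, -1.01 for Col1a2, -0.74 for Col3a1, -0.55 for Col5a1, -0.40 for Col6a1, -0.79 for Lox, -0.13 for Plod1, -0.69 for Serpinh1 and -0.16 for Pcolce. GC content and length correction gave 0.07 for Col4a2, and leaving out library 3 of both groups gave -0.34 for Col11a2, -0.23 for Col6a1 and -0.16 for Col6a2. With each library left out in turn, the ranges were -0.27 to 0.36 for Col11a2, -0.90 to 0.19 for Col17a1, -0.13 to 0.18 for Col5a1, -0.22 to 0.24 for Col6a1, -0.09 to 0.46 for Col6a2, -0.0019 to 0.46 for Lox and -0.60 to 0.04 for Loxl3; basement membrane chains called lower were 1 to 2 (2 without control library 3 or Al library 1) and enzymes called lower 0 to 1 (1 without Al library 3).

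The log2 difference of class sums was -0.19 for fibrillar chains and -0.15 for enzymes as a share of the summed FPKM, and 0.44 for other collagens after division by size factors. With 1 library left out it was -0.04 to 0.26 (fibrillar, negative without control library 3), -0.21 to 0.11 (other collagens, positive without control library 1, control library 2 or Al library 1) and -0.06 to 0.29 (enzymes, negative without Al library 1). That of the Plod2 to Plod1 ratio was -0.24 to 0.27, with a positive sign without control library 2, control library 3 or Al library 1. With the replicate block 11 members were higher and 2 lower, Col1a1 being the call lost (adjusted P = 0.0792); deviations of libraries with the same number had correlations of -0.0329, -0.0257 and -0.0733, so the numbers were not taken as pairs.

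The filter on mean FPKM, not depth alone, set 18 of 56 members aside, and 11 members were higher and 3 lower without it. Col2a1, Col9a2 and Col10a1 rest on 1 to 80 reads a library, which limits their precision. Thinning reads to the smallest library changed the call or sign of 0 of 38 tested members.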
